A study of Mus musculus with 4 samples.

Results

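The oligodendrocyte lineage transcription factors are 10 nuclear regulators by which cells of this lineage are specified, mature and make myelin. They form a list of names, matched by symbol, and no measured value enters the rule, although the list was drawn up with earlier results of these data known. They are the basic helix-loop-helix factors Olig1 and Olig2, the SoxE factors Sox10 and Sox8, the homeodomain factors Nkx6-2 and Nkx2-2, the membrane-bound factor Myrf, and the zinc finger factors Zfp488, Zfp536 and St18. All 10 had a value among the 52636 genes of the deposited files. RNA came from cells of the corpus callosum, a myelinated tract of the forebrain, of mice labelled Mertk_KO that had eaten chow with 0.2% cuprizone for 4 weeks. Mertk is a receptor by which phagocytes take up dying cells, and cuprizone is a copper chelator that kills oligodendrocytes. The cells formed 2 AnnexinV-positive and 2 AnnexinV-negative libraries. Annexin V binds phosphatidylserine, which dying cells expose on their surface. The groups are named by annexin V only, and the values used here do not show whether the cells were dying. All 4 libraries share the Mertk_KO genotype, the tissue, the chow and the time, so no wild-type and no untreated mice were compared, and the labels used here do not state the age or number of the mice or how the knockout was made.

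Olig2 is needed to specify the lineage, and Olig1, its neighbour on the same chromosome, for differentiation and repair of myelin. Sox10 is kept on from the precursor to the myelinating cell and, with Olig2, turns on Myrf, which is cleaved from its membrane anchor and then binds and activates myelin genes together with Sox10. Nkx2-2 acts around the exit from the precursor stage, while Nkx6-2 is a factor of maturing and myelinating oligodendrocytes.

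All 10 factors were far lower in the AnnexinV-positive libraries. In bulk libraries, fewer cells of the lineage and less RNA per cell cannot be told apart. Levels are RPKM, reads per kilobase of gene in the authors' scaling between libraries, which follows size factors rather than total depth; being per length, they can be compared between genes. In a fit of all 44826 genes above 0 in any library, with no minimum level, 10 of 10 factors were called lower (limma, Benjamini-Hochberg adjusted p under 0.05), against 5.55% of all genes called lower and 4.16% called higher, and their median log2 fold change (AnnexinV-positive minus AnnexinV-negative) was -4.11, against -0.05 over all genes fitted. In the fit of the 10927 genes that reached an RPKM of 1 in at least 2 libraries, 9 factors were tested and 9 were called lower, against 9.26% of the genes tested; 7 of these 9 had passed the minimum only through their AnnexinV-negative libraries, so that count carries no weight of its own. Zfp488 did not reach the minimum. Below, fold changes, SE and adjusted p of single factors between the groups are therefore those of the fit with no minimum, unless stated. The comparison with the myelin genes kept the minimum except where stated. Both AnnexinV-positive libraries lay below both AnnexinV-negative libraries for each of the 10 factors, as they did for 30.7% of the 44826 genes. The calls with no minimum needed all 4 libraries: without AnnexinV-positive replicate 1, AnnexinV-positive replicate 2 or AnnexinV-negative replicate 1 no factor was called, and without AnnexinV-negative replicate 2 the 2 called were Olig1 and Nkx6-2. In each of these 4 fits, all 10 factors had an unadjusted p under 0.05 and a log2 fold change between -6.51 and -2.13, and limma called 0 of all genes in the first 3 and 1727 in the last.

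**Figure D1:**
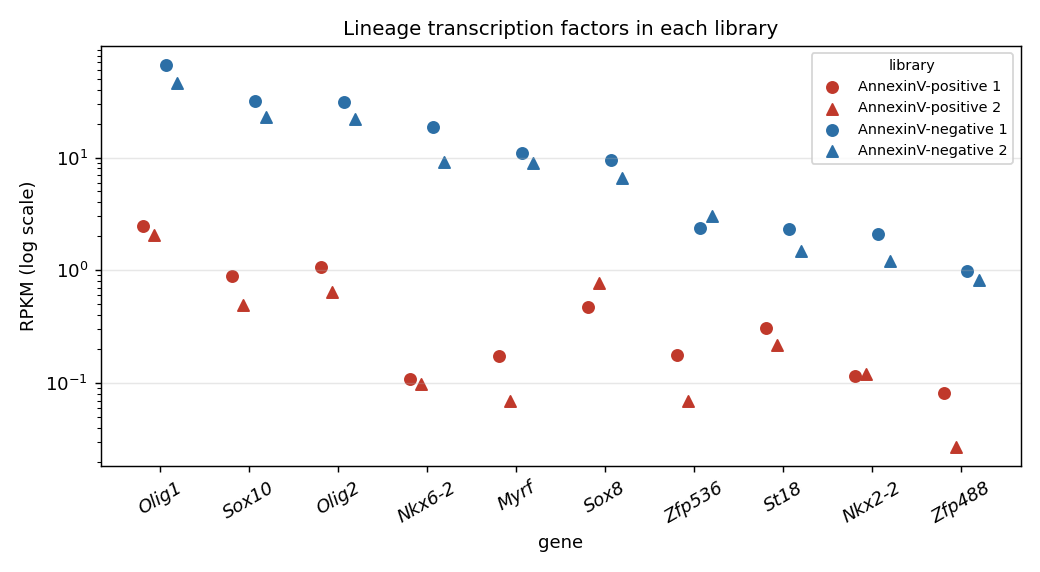
RPKM (vertical axis, log scale) of each transcription factor (horizontal axis, ordered by mean AnnexinV-negative level) in each of the 4 libraries; circles are replicate 1, triangles replicate 2, red AnnexinV-positive and blue AnnexinV-negative. The red and blue points are apart for all 10 genes, from a mean ratio of 7.26 for St18 to 133 for Nkx6-2.

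Olig1 was the most abundant factor in both groups. The gene lies on chromosome 16 at 91269772 to 91271933, plus strand (GRCm38, GENCODE vM21, protein coding), and 157 of its exonic bases (7.3%) are shared with Gm15966 on the other strand, which was low (0.0421, 0.218, 0.347 and 0.344 RPKM, in the order AnnexinV-positive 1 and 2, AnnexinV-negative 1 and 2, used throughout). Olig1 was at 2.46 and 2.07 RPKM in the AnnexinV-positive and at 66.1 and 45.4 in the AnnexinV-negative libraries. The groups were far apart, and both libraries of a group were close to each other next to that gap. The group means were 2.26 ± 0.273 and 55.7 ± 14.6 (SD, n = 2), a ratio of 24.6, and the log2 fold change was -4.54 (SE 0.23, limma adjusted p = 0.0029). Olig2 (chromosome 16, 91225457 to 91228677, plus strand) was at 1.07 and 0.644 against 31.1 and 22.0 RPKM, with means of 0.859 ± 0.305 and 26.6 ± 6.46 (SD, n = 2). Its log2 fold change was -4.81 (SE 0.29, limma adjusted p = 0.0031). About 525 and 385 reads, estimated from the RPKM and the gene length, lay behind the AnnexinV-positive values of Olig1, and about 269 and 140.1 behind those of Olig2, so neither low value rested on a handful of reads. Olig1 was above Olig2 in every library, by a ratio of 2.12 and 2.06 in the AnnexinV-negative and of 2.28 and 3.21 in the AnnexinV-positive libraries.

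Sox10 and Sox8 are closely related and partly share functions, with Sox10 the main SoxE factor of myelinating cells. Sox10 (chromosome 15, 79154908 to 79165240, minus strand) was at 0.891 and 0.488 RPKM in the AnnexinV-positive and at 31.4 and 23.0 in the AnnexinV-negative libraries, with means of 0.689 ± 0.285 and 27.2 ± 5.97 (SD, n = 2). The log2 fold change was -5.14 (SE 0.30, limma adjusted p = 0.0031), and the ratio of the means was 39.5. Sox8 (chromosome 17, 25565892 to 25570686, minus strand) was at 0.470 and 0.771 against 9.48 and 6.54 RPKM, with means of 0.621 ± 0.213 and 8.01 ± 2.08 (SD, n = 2), and a ratio of 12.9. Its log2 fold change was -3.50, with an SE of 0.30 (limma adjusted p = 0.00624). Sox10 was above Sox8 by a ratio of 3.31 and 3.52 in the AnnexinV-negative libraries and of 1.89 in AnnexinV-positive replicate 1, but below it, at 0.633 of its level, in AnnexinV-positive replicate 2. About 128 reads of Sox10 and 207 of Sox8 lay behind that last ratio. Sox8 shares 329 exonic bases (10.6%) with 2810468N07Rik on the other strand, which was itself at 1.11 and 0.939 against 9.59 and 4.70 RPKM. Since the TruSeq v2 kit does not keep strand, reads of the shared bases cannot be assigned to Sox8 or to that transcript, and the same holds for every overlap named here.

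Nkx6-2 showed the largest ratio of the 10 factors. It was at 0.109 and 0.0984 RPKM in the AnnexinV-positive and at 18.5 and 9.08 in the AnnexinV-negative libraries. The AnnexinV-positive values rested on about 20.6 and 16.2 reads, against about 4235 and 1678. The means were 0.104 ± 0.0075 and 13.8 ± 6.65 (SD, n = 2), and the log2 fold change was -6.00 (SE 0.36, limma adjusted p = 0.0031); with 0.1 added to each RPKM before the log, this understates the ratio of the means of 133. Nkx6-2 (chromosome 7, 139579376 to 139582797, minus strand) shares 246 exonic bases (12.9%) with Inpp5a on the other strand, which was at 3.06 and 2.75 against 5.23 and 4.78 RPKM. Nkx2-2 (chromosome 2, 147177546 to 147194243, minus strand) was at 0.116 and 0.120 against 2.09 and 1.22 RPKM, on about 33.1 and 29.7 reads against 722 and 341. Its AnnexinV-positive values were nearly equal, and both AnnexinV-negative values lay well above them. The means were 0.118 ± 0.00247 and 1.66 ± 0.613 (SD, n = 2), a ratio of 14.0, and the log2 fold change was -2.97 (SE 0.34, limma adjusted p = 0.0126). Its antisense neighbour Nkx2-2os, with which 278 exonic bases (9.7%) are shared, was at 0.121 and 0.192 against 0.351 and 0.442 RPKM. The level of Nkx6-2 relative to Nkx2-2 was 8.84 and 7.41 in the AnnexinV-negative libraries and 0.936 and 0.82 in the AnnexinV-positive libraries, so the order of these homeodomain factors differed between the groups.

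Myrf, the direct activator of myelin genes, was at 0.173 and 0.0696 RPKM in the AnnexinV-positive and at 11 and 8.91 in the AnnexinV-negative libraries. The means were 0.121 ± 0.073 and 9.93 ± 1.45 (SD, n = 2), a ratio of 82.0, and the log2 fold change was -5.54 (SE 0.30, limma adjusted p = 0.0029). The gene lies on chromosome 19 at 10208272 to 10240748, minus strand. After Nkx6-2 it had the next largest ratio, and relative to Sox10 its level was 0.349 and 0.388 in the AnnexinV-negative and 0.194 and 0.143 in the AnnexinV-positive libraries.

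The zinc finger factors were the least abundant, apart from Nkx2-2, in the AnnexinV-negative libraries. Zfp536 (chromosome 7, 37472135 to 37773641, minus strand), known as a repressor of neuronal differentiation, was at 0.178 and 0.0691 against 2.36 and 3.01 RPKM, with means of 0.124 ± 0.0773 and 2.69 ± 0.463 (SD, n = 2). Its log2 fold change was -3.67 (SE 0.33, limma adjusted p = 0.00726). St18 (chromosome 1, 6487231 to 6860940, plus strand), of the Myt1 family, was at 0.305 and 0.217 against 2.32 and 1.47 RPKM, with means of 0.261 ± 0.0625 and 1.89 ± 0.601 (SD, n = 2). Its ratio was 7.26 and its log2 fold change -2.44 (SE 0.32, limma adjusted p = 0.0166), and it had the smallest difference of the 10. Zfp488 (chromosome 14, 33967070 to 33978764, minus strand), which works with Olig2 in differentiation, was at 0.0823 and 0.0270 against 0.985 and 0.816 RPKM, on about 35 and 10 reads against 509 and 340. All 4 values were under an RPKM of 1. Its log2 fold change was -2.71 (SE 0.35, limma adjusted p = 0.0165), and the ratio of its means of 0.0546 ± 0.0391 and 0.901 ± 0.12 (SD, n = 2) was 16.5.

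The factors formed levels that were ordered differently in the groups. In AnnexinV-negative cells Olig1 came first, then Sox10 and Olig2, whose values overlapped, then Nkx6-2, Myrf and Sox8, whose neighbours in this order overlapped, then Zfp536, then St18 and Nkx2-2, which overlapped, and last Zfp488. In AnnexinV-positive cells Olig1 also came first and Zfp488 last, but the overlapping Olig2, Sox10 and Sox8 were followed by St18. Then came Zfp536, Myrf and Nkx2-2, which overlapped, and, by mean RPKM, Nkx6-2. In AnnexinV-positive replicate 2, however, Nkx6-2 (0.0984 RPKM) was above Zfp536 (0.0691) and Myrf (0.0696). St18 thus ranked 8 of 10 by mean RPKM in AnnexinV-negative and 5 in AnnexinV-positive cells, and Nkx6-2 ranked 4 and 9. Within a library such a ratio does not depend on how libraries were scaled: Nkx6-2 relative to St18 was 7.98 and 6.19 in the AnnexinV-negative and 0.357 and 0.454 in the AnnexinV-positive libraries. These ratios are descriptions; they were not tested.

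RefSeq sequence upstream of the start (GRCm38.p6) was in hand for 6 of the 10 factors, Olig2, Sox8, Nkx6-2, Nkx2-2, Zfp488 and Zfp536. The start is that of RefSeq, which for Olig2, Nkx2-2 and Zfp536 lies inside the GENCODE gene given above and not at its edge. The windows of 250 bases before the start were searched, exonic bases included, on both strands for letters known to be bound by the factors themselves: ACAAAG and ACAATG for Sox10 and Sox8, CAGCTG and CAGATG for Olig1 and Olig2, CTGGCAC and CTGGTAC for Myrf, TAATTA for Nkx6-2, and CACTTNA for Nkx2-2, none of which overlaps another here. ACAATG was found in 1 of 6 (Olig2), CAGATG in 1 (Nkx2-2), TAATTA in 1 (Zfp536) and CACTTNA in 1 (Nkx2-2), and the other 4 in none. The matches of Olig2 and Zfp536 lie in bases of an annotated exon and are not shown. Of all 32851 such windows in the table, 10.7%, 14.4%, 4.84% and 10.1% held these letters, in that order. The shares for the letters found in no factor were 16.5% for ACAAAG, 13% for CAGCTG, 4.19% for CTGGCAC and 1.83% for CTGGTAC. The sequences of 3 factors are shown without bases that lie in an annotated exon, 5′ to 3′ on the strand of the gene, because they carry the lineage factor (Olig2), the factor with the largest ratio (Nkx6-2) and the factor with 2 matches (Nkx2-2). Capitals mark a match, of which the runs of Olig2 and Nkx6-2 hold none: CATCTG, which is CAGATG on the other strand, begins 220 bases and CACTTGA begins 197 bases before the RefSeq start of Nkx2-2. A match is a run of letters and not a measured binding site. The Olig2 run is chr16:91225300-91225456 (plus strand), the Nkx6-2 run chr7:139582798-139583047 (minus strand) and the Nkx2-2 run chr2:147186456-147186652 (minus strand).
Olig2: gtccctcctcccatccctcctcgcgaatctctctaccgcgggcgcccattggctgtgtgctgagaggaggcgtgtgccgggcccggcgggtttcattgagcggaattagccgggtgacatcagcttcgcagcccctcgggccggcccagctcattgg
Nkx6-2: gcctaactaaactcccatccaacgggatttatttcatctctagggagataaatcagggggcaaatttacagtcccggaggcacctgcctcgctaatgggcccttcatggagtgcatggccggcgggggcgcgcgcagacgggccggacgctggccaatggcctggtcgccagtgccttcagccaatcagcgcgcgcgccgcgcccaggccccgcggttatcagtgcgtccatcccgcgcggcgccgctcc
Nkx2-2: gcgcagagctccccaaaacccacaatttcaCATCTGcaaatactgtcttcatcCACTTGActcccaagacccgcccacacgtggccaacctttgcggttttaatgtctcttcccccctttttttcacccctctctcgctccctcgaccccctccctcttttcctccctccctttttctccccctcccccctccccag

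The factors were set beside 15 myelin genes, structural and mature oligodendrocyte genes that contain no factor. All 15 were called lower in the fit with no minimum, against 5.55% of all genes, with a median log2 fold change of -4.74, against -4.11 over the 10 factors and -0.05 over all genes fitted. Mobp, Mog and Ermn, which encode proteins of the myelin sheath or of mature oligodendrocytes, had log2 fold changes of -6.01, -6.11 and -5.28. The ratio of the group means was 9.95 to 162 over the myelin genes (median 43.5) and 7.26 to 133 over the 10 factors (median 23.2). The ratio of St18 lay under that of all 15 myelin genes, and the 14.0 of Nkx2-2 within their range.

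To test whether a factor differed from the myelin genes, the median log2(RPKM + 0.1) of the 15 myelin genes was subtracted in each library before the fit; that median itself differed by -5.48 between the groups, so 99.3% of all genes tested came out higher on this scale. Against that background 4 of 9 factors were higher: St18 by 3.04 (SE 0.62), Nkx2-2 by 2.51 (SE 0.60), Sox8 by 1.98 and Zfp536 by 1.80, with limma adjusted p of 9.96e-07, 3.28e-05, 0.00274 and 0.00342. Olig1 (0.94), Olig2 (0.67), Sox10 (0.33), Myrf (-0.06) and Nkx6-2 (-0.53) were not called, which does not show that they moved as the myelin genes did. The 4 factors called had passed the minimum only through their AnnexinV-negative libraries. With no minimum they were higher too, with limma adjusted p of 5.07e-06, 0.000196, 0.00232 and 0.00683 in the same order. Zfp488 was higher as well (2.77), against 99.8% of all genes. Every gene carries the replicate error of the subtracted median, so these p-values, from variances shared between genes, are unreliable. For the 4 factors called they were smaller than with each gene's own variance, and for the factors not called they were larger. With each gene's own variance, where 98.4% of all genes were higher, St18 (adjusted p = 0.0145) and Nkx2-2 (adjusted p = 0.0145) were called again in limma's fit, Olig1 was too (adjusted p = 0.0316), and Sox8 (0.0692) and Zfp536 (0.0925) were not. With the mean of the myelin genes subtracted instead, the centre had moved by -4.79 and 2 of 9 factors were higher (98.4% of all genes), St18 by 2.35 and Nkx2-2 by 1.82. With each gene's own variance as well, these 2 were again higher (96.4% of all genes), and Nkx6-2 was called lower, with a difference of -1.21 (limma adjusted p = 0.0243), as 0.0915% of all genes were. Over 14 versions of this fit, the log2 differences were 2.35 to 3.12 for St18 and 1.82 to 2.75 for Nkx2-2. Versions with no minimum and 1 library left out were run as well and are not among the 14. With 0.01 in place of 0.1 added to every RPKM, Nkx2-2 was higher by 2.21. Zfp536, at 1.40, was no longer called (limma adjusted p = 0.0539). The myelin genes Cnp (2.58), Mag (2.23), Mbp (2.11) and Ugt8a (1.47) were also called higher there, so Nkx2-2 lay within their range. Gjb1 (-1.74) was called lower, and the other myelin genes were not called.

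**Figure D2:**
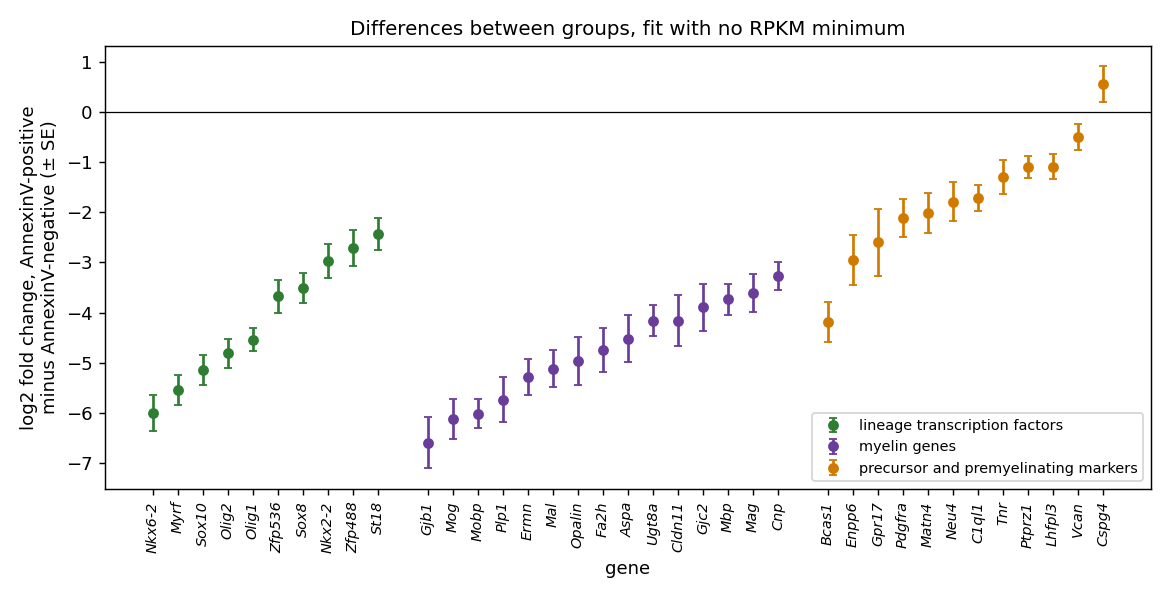
Log2 fold change, AnnexinV-positive minus AnnexinV-negative (vertical axis), of each gene (horizontal axis) in the fit with no RPKM minimum; points are estimates, bars ± SE, green the transcription factors, purple the myelin genes and orange markers of precursors and premyelinating cells. The factors span -6.00 (Nkx6-2) to -2.44 (St18), the myelin genes -6.59 to -3.27 and the precursor markers -4.19 to 0.55.

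Markers of precursors and premyelinating cells, the stages before myelination, had smaller differences. Of 12 listed, 7 were called lower and none higher in the fit with no minimum, with a median log2 fold change of -1.75. Bcas1 and Enpp6, genes of premyelinating oligodendrocytes, were at -4.19 and -2.95, and C1ql1, a gene of precursors, at -1.71. Their ratio of group means was 0.73 to 18.8 (median 4.05). Only Cspg4 had a ratio under 1: it was at 10.1 and 12 against 5.06 and 11.1 RPKM, groups that overlap, and was chosen for mention after its values were seen. The number of precursor markers called lower with no minimum was 5 of 12 with libraries centred on the median gene and 11 of 12 on the TPM scale, where each library sums to the same total. All 10 factors were called lower on both of these scales too, with median log2 fold changes of -3.75 and -5.23, against 3.82% and 15.3% of all genes.

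The 2 AnnexinV-negative libraries differed in the amount of this RNA. The factors summed to 175 and 121 RPKM, and 9 of 10 were higher in replicate 1, by a median ratio of 1.43 (0.783 for Zfp536 to 2.04 for Nkx6-2). The 15 myelin genes were all higher in replicate 1, by a median of 1.96 and a range of 1.63 to 2.71, whereas the median was 0.855 for the 12 precursor markers, 0.841 for 14 markers of homeostatic microglia and 0.989 for all genes tested. The shift was not limited to genes of this lineage: the median ratio was 1.39 for 11 astrocyte markers (10 of 11 higher in replicate 1), 1.23 for 12 neuron markers and 7 for 6 ependymal or choroid plexus markers. Nkx6-2 and Nkx2-2 (1.71) were the factors whose ratio lay within the range of the myelin genes. Replicate 1 of the AnnexinV-positive libraries was higher for 8 of 10 factors, by a median ratio of 1.54 (0.61 for Sox8 to 3.05 for Zfp488), with a sum of 5.85 against 4.57 RPKM. With 1 pair of libraries in each group these ratios have no test.

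**Figure D3:**
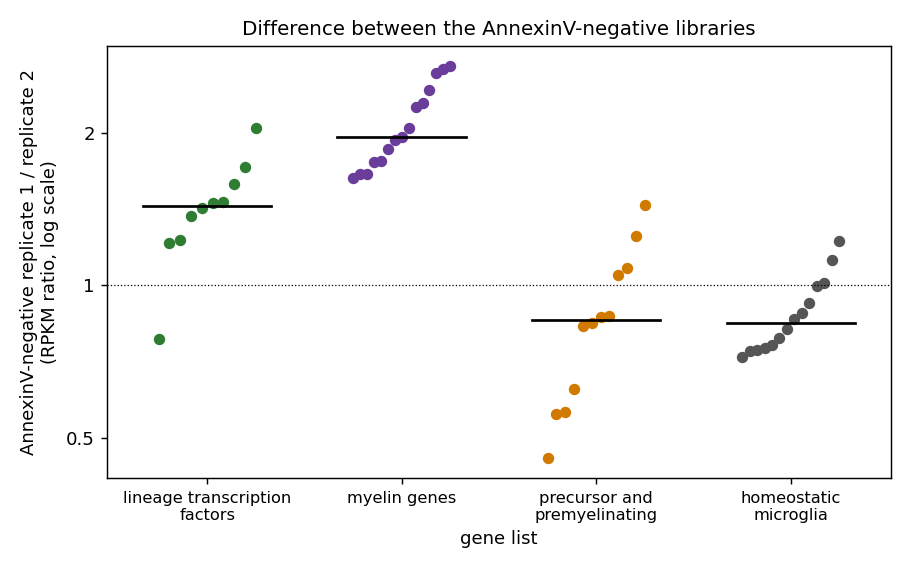
Ratio of RPKM in AnnexinV-negative replicate 1 to replicate 2 (vertical axis, log scale) for the genes of 4 lists (horizontal axis); each point is a gene, ordered by its ratio within a list, and bars are list medians. The transcription factors have a median of 1.43, the myelin genes 1.96, the precursor markers 0.855 and the microglia markers 0.841.

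Among 11 paralogues of the factors, 2 reached the RPKM minimum. Sox9, the SoxE factor of astrocytes and early precursors, was at 1.40 and 1.28 against 4.55 and 2.78 RPKM and was called lower with no minimum, at -1.35 (SE 0.28, limma adjusted p = 0.0382), with a ratio of 2.74 against 39.5 for Sox10. Sox10 exceeded Sox9 6.91 and 8.27 times in the AnnexinV-negative libraries, but was 0.636 and 0.382 of it in the AnnexinV-positive libraries. Zfp219 was at 2.75 and 2.98 against 2.92 and 2.85 RPKM, did not pass on this scale (-0.01, limma adjusted p = 0.966) and was called lower on the TPM scale (-0.78, limma adjusted p = 0.0351), as 19.1% of genes were. With no minimum, 4 of the 10 paralogues above 0 were called lower: Sox9, Nkx2-9, Myt1 and Myt1l, the last 3 named after their values were seen. Myt1 (0.0593 and 0.0413 against 0.405 and 0.594 RPKM) and Myt1l (0.0293 and 0.0457 against 0.296 and 0.396 RPKM), relatives of St18, were lower in every library than St18 was. Nkx2-9, the closest relative of Nkx2-2, had about 1 read in each AnnexinV-positive library against about 67 and 55 (0.441 and 0.449 RPKM), so no fold is given. Another 6, Olig3, Nkx6-1, Nkx6-3, Nkx2-1, Myrfl and Prdm8, were under 0.1 RPKM in all 4 libraries, and Nkx2-1 had no read in any.

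**Figure D4:**
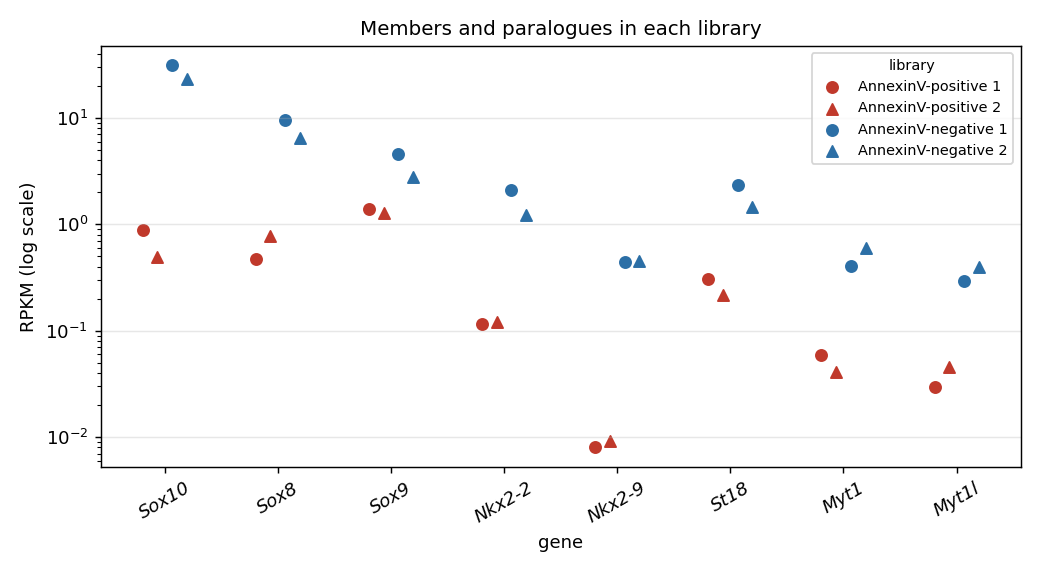
RPKM (vertical axis, log scale) of 4 factors of the list with related genes (horizontal axis: Sox10 and Sox8 with Sox9, Nkx2-2 with Nkx2-9, St18 with Myt1 and Myt1l) in each library; circles are replicate 1, triangles replicate 2, red AnnexinV-positive and blue AnnexinV-negative. Sox9 is under Sox10 and Sox8 in both AnnexinV-negative libraries and above them in both AnnexinV-positive libraries.

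Genes of 14 proteins that act with the factors, or on them, had a median log2 fold change of 0.03. With no minimum, 3 were called lower and 1 higher (5.55% and 4.16% of all genes). Those lower were the nuclear factor I gene Nfib (-2.41), close to St18 in size, the E protein gene Tcf12 (-0.97), whose product pairs with Olig proteins, and Tmem98 (-2.0), whose product binds Myrf and blocks its cleavage. Nfix (-1.03) and Nfia (-0.76) were called lower only with the minimum (5 lower and 1 higher, against 9.26% and 30.8% of genes tested), and with no minimum and centred libraries 1 was lower, Nfib, and 2 higher (3.82% and 12.4% of all genes). Tmem98 was at 1.30 and 0.683 against 6.0 and 2.77 RPKM, so the groups did not overlap, but the libraries within each group differed more than those of Olig1, Olig2 or Sox10 did. The chromatin remodeller gene Chd7 was called higher (0.94, limma adjusted p = 0.0473 with no minimum), but with the minimum not on the centred or the TPM scale, where 10.4% and 1.03% of genes were higher. Of 18 factors that hold back or promote differentiation, 7 were called lower and 3 higher with no minimum, with a median of -0.89, and on the TPM scale 13 were lower and 1 higher. Klf9, a thyroid hormone-responsive factor, was at 0.892 and 0.869 against 6.47 and 5.01 RPKM (-2.56), and Id1, an inhibitor of helix-loop-helix factors, was at -1.36. Id2, another such inhibitor, was at 118 and 122 against 47.8 and 38.2 RPKM (1.49), and it was the only one of the 3 also called higher on the TPM scale; Klf6 (1.08) and Hes1 (0.81) were not.

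Among 9 genes with a known regulatory link to Sox10 or Myrf outside the myelin list, 6 were called lower and none higher with no minimum (5.55% and 4.16% of all genes), with a median log2 fold change of -1.18, and 4 were lower with libraries centred as well. Erbb3, a neuregulin receptor gene, was at 0.0689 and 0.0328 against 5.46 and 4.97 RPKM (-5.15, SE 0.26), a ratio of 103. Cntn2, an adhesion molecule gene, and Dusp15, a phosphatase gene linked to Myrf, were at -4.57 and -3.42. The 3 that were not called, named after their values were seen, were Qk (0.15), Rffl (0.07) and Cdkn1c (-0.41). The 5 genes whose profile over the 4 libraries was most like the mean profile of the 9 factors tested, by Euclidean distance of mean-centred log2(RPKM + 0.1), were Mapt (0.18), Pou3f1 (0.19), Ncam1 (0.22), Tmem151a (0.24) and Ugt8a (0.25), the last of which is in the myelin list. Their log2 fold changes were -4.14 to -4.36 and, as they were picked for likeness, are a description.

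Markers of other cell types moved with the same groups. The summed RPKM of 14 homeostatic microglia markers was 5709 and 5711 against 2228 and 2711, and 13 of 14 were called higher with no minimum on the deposited scale (4.16% of all genes) but 0 on the TPM scale; none was at 0. Of 11 astrocyte markers 5 were called lower (5.55% of all genes), 9 with the minimum and 3 with no minimum and centred libraries, with sums of 36.4 and 53.5 against 112 and 82 RPKM. With no minimum, 6 of 9 endothelial markers were called lower (sums of 8.69 and 12.6 against 43.2 and 45.1), as were 4 of 12 neuron markers, Tubb3 and Stmn2 among them (2.44 and 2.36 against 17.5 and 11.7). Of 8 pericyte or fibroblast markers, 3, Kcnj8, Rgs5 and Pdgfrb, were called lower (12.9 and 5.39 against 39.2 and 24.4). The 6 ependymal or choroid plexus markers summed to 399 and 59 against 375 and 20.9 RPKM, apart between replicates rather than groups, and limma called 0 of 6, 0 of them with an unadjusted p under 0.05. Sox10 and Sox8 are also made by Schwann cells; of 6 Schwann cell markers, Pmp2 was under 0.1 RPKM in all libraries, and the 6 summed to 32.7 and 29.1 against 19.9 and 21.3 RPKM, most of it from Egr2 (32.4 and 28.7 against 17 and 19.1). With no minimum, 2 of these 6 were called lower and 1 higher (5.55% and 4.16% of all genes). Cdh19 went the other way from Egr2, with about 79.8 and 78.7 reads against about 1143 and 652. The part of cell composition in the differences of the factors was not tested.

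The libraries held an estimated 43255155 to 67462089 reads in genes. In the deposited scaling, a single read per kilobase was worth 0.00833 to 0.0116 RPKM, values not ordered by depth. An RPKM of 1 was reached by 10208 to 10509 genes in a library. Mertk itself was at 62.6 and 53.6 against 18.8 and 29.9 RPKM; such whole-gene values do not check the knockout. Whether the replicates were separate mice is not stated in the labels, so the p-values cover the spread between libraries only, and that spread may be technical. An exact permutation test of 2 libraries against 2 cannot give a p below 0.333.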

How the data were processed

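Bulk RNA-seq of 2 AnnexinV-positive and 2 AnnexinV-negative libraries was analysed, grouped by the sample titles. Per the labels' protocols, mice were perfused, the corpus callosum was dissociated with a neural tissue kit, and libraries were made with the TruSeq v2 kit. Per the submitters' processing notes, the authors aligned reads with GSNAP to mm10; the counter, annotation release and filters are not given here. Each deposited file held 1 value per Ensembl gene with no unit named. The values were read as RPKM that the authors scaled by size factors, from the values themselves: 77.72% to 82.44% of low values (under 100 reads) were whole, to within 0.01, once divided by a step that depends on the exonic length in GENCODE vM21. Against the 4-library geometric mean, each library's median log2 ratio was 0.029. Reads quoted are RPKM divided by that step and are approximate.

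GENCODE vM21 (GRCm38) matched 52403 of 52636 genes to a symbol and 52489 to a length; all 154 listed genes matched. Values were transformed to log2(RPKM + 0.1), so fold changes of low genes are understated. Genes that reached an RPKM of 1 in at least 2 libraries were fitted with limma (version 3.58.1, R version 4.3.3), an intensity trend and no covariate, with p adjusted by Benjamini-Hochberg over all genes tested; the steps were tested on simulated data. The fit was repeated with no minimum. Promoter letters came from RefSeq (GRCm38.p6).

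The factors, the lists and the letters searched were chosen with earlier results of these data known. Named genes were all 10 factors and the 3 tested genes of each other list with the smallest p. Also named were genes called in a direction that 5 or fewer of their list were called in, and the 5 most similar profiles. Exceptions are stated. For the lists of other cell types, only some of the genes so chosen are named. Alternatives were no minimum, a minimum of 0.1, pseudocounts of 0.01 and 1, libraries centred on the median gene, the TPM scale, each library left out, a replicate block and the mean of the myelin genes as the centre. Added after the data were seen were no minimum together with a left-out library, another scale or a pseudocount of 0.01, a crossed replicate pairing, and variances not shared between genes.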

Additional observations from a re-analysis of the deposited data

How the results depend on the processing

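Over the 9 factors tested, 137 of 171 values under other settings kept their direction and call, 34 kept their direction and lost the call, and 0 reversed. All 34 came from fits with no minimum and 1 library left out. With the genes tested held, the 9 factors stayed lower without each library in turn. However, 7 of these 9 had passed the minimum only through their AnnexinV-negative libraries, so this carries no weight of its own. Where 1 library was left out, the lone library of its group was assumed to vary like those of the other group. The factors' log2 fold changes ranged over all settings from -7.48 (Nkx6-2, TPM scale) to -1.18 (St18, pseudocount of 1).

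The number of all genes called lower was 2489 with no minimum, 3913 with a minimum of 0.1 and 2091 on the TPM scale, against 1012, and the number called higher was 1865 with no minimum, 1133 with libraries centred and 113 on the TPM scale, against 3364. Without 1 replicate, 787 to 1060 were lower and 1297 to 3356 higher. The cause was not tested. The counts that follow do not include fits relative to the myelin genes with no minimum and 1 library left out. Relative to the myelin genes, 99.3% of all genes tested were higher in the main version, against 4 of 9 factors. In the other versions, 103 of 117 factor values kept their call, 11 lost and 3 gained it, and 0 reversed while called. There, 2 to 4 factors were higher without 1 replicate (2 without AnnexinV-positive replicate 2), and 2 with the mean of the myelin genes as centre, with and without shared variances.

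Same-numbered libraries deviated with r = -0.215 across 10927 genes (2 pairs; genes are not independent), so the numbers were not shown to pair libraries. With a replicate block, 9 of 9 factors were lower, but 7 of these had passed the minimum only through their AnnexinV-negative libraries. Relative to the myelin genes, 5 of 9 factors were higher with that block, on a scale where 99.3% of all genes were higher without it. Of the 10927 genes tested, 957 were lower and 2443 higher with the block. With the pairing crossed, 1136 were lower and 4891 higher.

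The AnnexinV-positive values of the factors rested on the fewest reads, down to about 10 for Zfp488. These libraries were nonetheless the deeper ones, with 67462089 and 60141394 reads in genes against 50528206 and 43255155.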
